A study of Mus musculus with 8 samples.

Results

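The comparison was of astaxanthin with placebo in the hippocampus of mice, taken across sedentary and exercised animals, and it used all 8 of the 8 samples. The tested diet was given to 4 samples. They were 2 of sedentary mice on astaxanthin (AX) and 2 of mice that had mild treadmill exercise as well as astaxanthin (AX+ME). The placebo diet was given to the other 4, namely 2 of sedentary mice (SED) and 2 of mice with mild exercise (ME). All were male wild-type C57BL/6J mice obtained at 11 weeks of age, with 8 mice in each group. The food was a powder diet into which either powder was mixed at 0.5% by weight, and astaxanthin made up 2% of the active powder, which came from the alga Haematococcus pluvialis. Total RNA of ground hippocampus was labelled with Cy3 (replicate 1 of each group) or Cy5 (replicate 2), each sample alone on 1 of the 8 arrays of a single slide. The labels leave unsaid how the 8 mice of a group gave 2 samples and whether these are different animals, so the spread behind each p-value may be technical only.

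Astaxanthin is a red, fat-soluble carotenoid that algae make and that colours salmon and shrimp. In cells it quenches singlet oxygen and scavenges radicals, and in animals it is studied as an activator of Nrf2, the transcription factor that switches on antioxidant and detoxifying enzymes through the antioxidant response element. The hippocampus serves spatial memory and is 1 of the few regions of the adult mouse brain where new neurons are made. Immediate early genes such as Fos and the Egr family are transcribed there within minutes of neuronal activity, and leptin, a hormone best known from fat tissue, acts on it through its receptor.

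Levels are given as relative signal, the spot intensity as a percent of the 75th percentile of its own array (a value of 100 equals that percentile), and differences as log2 of astaxanthin over placebo. Only spots in array columns 70 and higher were used, because dim areas lay across the lower columns of the SED arrays. The 75th percentile there ran from 1799 to 2360.9 intensity units on astaxanthin arrays and from 1496.2 to 2363 on placebo arrays, and 63.06% to 76.26% and 63.81% to 73% of spots were well above background. For each of 20085 genes and unnamed transcripts (10549 with a symbol) the diet difference was formed in 4 pairs of arrays that share activity and dye: sedentary Cy3, sedentary Cy5, exercised Cy3 and exercised Cy5. No array enters more than 1 pair. Of 14 hippocampal principal neuron markers that were tested, 13 were well above background on all 8 arrays, among them the dentate granule cell gene C1ql2 and the CA1 gene Wfs1. Cy3 and Cy5 samples occupied separate rows of the slide and each group a column of its own, and so diet cannot be told apart from slide position.

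A single gene differed between the diets at an adjusted p under 0.05, which is 0.00498% of those tested. It was Mcpt4 (NM_010779, chromosome 14), a chymase-type protease of connective tissue mast cells. Its relative signal was 2.67 and 2.52 in AX and 2.88 and 2.72 in AX+ME, against 1.66 and 1.59 in SED and 1.72 and 1.75 in ME. Every astaxanthin array lay above every placebo array, and the 4 pair differences were 0.68, 0.67, 0.74 and 0.63. The difference was 0.68 (SE 0.04, n = 4 arrays per diet, adjusted p = 0.0447, limma with Benjamini-Hochberg adjustment), a 1.60-fold higher level with astaxanthin. Mcpt4 was a dim gene, well above background on 3 of the 4 astaxanthin and 2 of the 4 placebo arrays. With the activity-by-dye pair as the block its adjusted p was 0.188, and it was above 0.05 without any 1 of the 8 arrays (0.143 to 0.25). In ground tissue, more cells of a type and more RNA per cell cannot be told apart.

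No gene was lower at that threshold (0% of those tested by limma), while 2791 genes (13.9%) were higher and 1634 genes (8.14%) were lower at an unadjusted p under 0.05. The diet difference had the same sign in all 4 pairs for 6375 genes, which is 31.7%. Of these 3708 (18.5%) were higher and 2667 (13.3%) were lower with astaxanthin. The 4 astaxanthin arrays all lay above the 4 placebo arrays, after removal of each dye's mean, for 1796 genes (8.94%) and all below for 1483 genes (7.38%). Differences were small: 12 genes (0.0597%) were at least 1.5-fold higher in all 4 pairs and 3 genes (0.0149%) at least 1.5-fold lower. Across genes, the differences of 2 pairs correlated with r of 0.0157 to 0.275. Apart from Mcpt4, every gene below is described by its values and did not pass the test.

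Among the 12 symbol genes with the firmest same-sign difference upward that were well above background on all 8 arrays, was the neuropeptide gene Oxt, which encodes oxytocin. Oxt had a relative signal of 20.5 and 20.4 in AX and 14.7 and 15.4 in AX+ME, against 10.1 and 11.8 in SED and 8.74 and 10.5 in ME. All 4 astaxanthin arrays were above all 4 placebo arrays, and the AX arrays were the highest. The difference was 0.78 (SE 0.08, adjusted p = 0.0904 by limma). Oxytocin is made in the hypothalamus, and of 11 tested members of the hypothalamus marker list, 2 were higher and 3 lower in all 4 pairs. The list's summed relative signal was 345.11 to 368.2 on astaxanthin arrays and 358.6 to 391.48 on placebo arrays. The cadherin gene Fat2 had 22.1, 19.1, 27.7 and 28.0 on the astaxanthin arrays (AX first, then AX+ME) against 16.9, 14.9, 21.4 and 17.9 on the placebo arrays (SED first, then ME).

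Several of the other leading genes upward belong to epithelia, lens or the nose. The epidermal keratin genes Krt6b and Krt80 differed by 0.62 and 0.73, and Krt80 had 21.5 and 24.2 in AX+ME against 10.4 and 11.0 in ME but 13.4 and 14.8 in AX against 10.3 and 11.6 in SED. The lens crystallin gene Crygf differed by 0.69 and the odorant receptor gene Olfr1232 by 0.75. Zscan10, a zinc finger transcription factor of embryonic stem cells, had the smallest error of the 12 genes (0.45, SE 0.03), with 5.69 and 5.66 in AX and 5.88 and 6.17 in AX+ME against 4.12 and 4.35 in SED and 4.27 and 4.397 in ME. Duox1, an oxidase that makes hydrogen peroxide, differed by 0.40. Morn3, Tent5b and Tmem247 differed by 0.53, 0.60 and 0.56.

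The genes downward included regulators of synapses, calcium and transcription. Unc13c, which encodes the synaptic vesicle priming protein Munc13-3, had 38.4 and 37.2 in AX and 38.9 and 41.1 in AX+ME, against 62.1 and 66.2 in SED and 51.3 and 55.9 in ME. Its difference was -0.59 (SE 0.08, adjusted p = 0.0987), and no astaxanthin array reached a placebo array. Egr2, an activity-induced zinc finger transcription factor, had 38.1 and 44.0 in AX and 37.3 and 37.6 in AX+ME, against 55.4 and 54.9 in SED and 50.0 and 50.9 in ME. The Egr2 groups did not overlap either, and the difference was -0.43 (SE 0.05, adjusted p = 0.0904). Sarcolipin (Sln), a small inhibitor of the sarcoplasmic calcium pump, differed by -0.47. The GATA cofactor gene Zfpm2 had 138, 166, 136 and 145 on astaxanthin arrays (AX, then AX+ME) against 186, 211, 167 and 191 on placebo arrays (SED, then ME).

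The remaining leaders downward were the ubiquitin ligase genes Rnf122 (-0.57) and G2e3 (-0.37), the chromatin remodelling subunit gene Ino80b (-0.45), the NAD hydrolase gene Nudt12 (-0.41), the adhesion receptor gene Adgrg2 (-0.39), the zinc finger gene Zfp605 (-0.38) and Krtap19-4 (-0.30), the last named for a hair keratin-associated protein. The centrosomal gene Cep41 differed by -0.51, but its other probe, in the lower array columns, gave 0.50. G2e3 also had 2 other probes in the lower columns at 0.30 and 0.43 and 1 in the columns used at -0.72, and Morn3 had 1 in the lower columns at -0.14. Zfp605 had 2 other probes in the columns used, at -0.21 (SE 0.23) and 0.0092 (SE 0.11). Restricting the fit to genes well above background on all 8 arrays called 37 genes (31 higher, 6 lower), with Oxt, Olfr1232, Morn3, Zscan10, Rnf122, Egr2, Zfp605, Zfpm2 and Krtap19-4 among them at an adjusted p of 0.049.

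**Figure D1:**
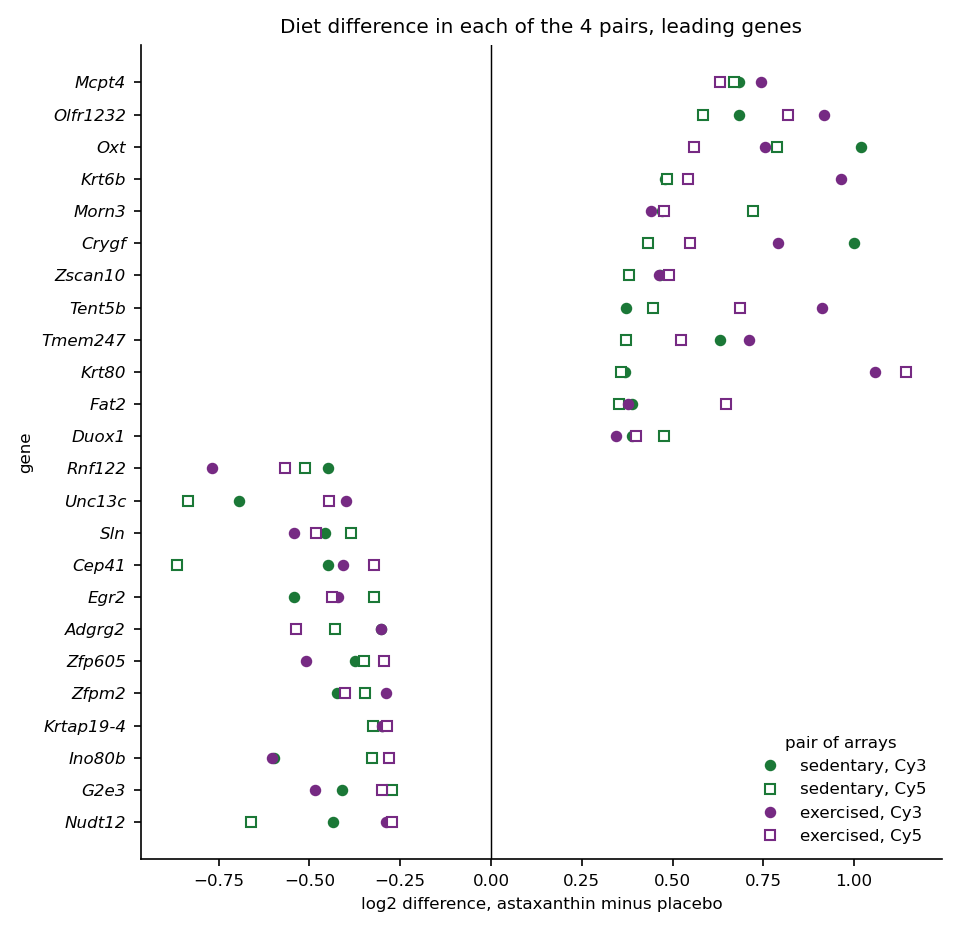
Log2 difference of astaxanthin minus placebo (x axis) in each of the 4 pairs of arrays, for Mcpt4, for 11 of the 12 genes higher and for the 12 genes lower with the firmest same-sign difference; green marks sedentary pairs, purple exercised pairs, filled circles Cy3 and open squares Cy5. The 4 points of Mcpt4 lie between 0.63 and 0.74.

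Some larger differences came from genes that were not well above background on all arrays. Mael, a gene of the piRNA pathway that silences transposons in germ cells, had 0.411 and 0.281 in AX and 0.297 and 0.516 in AX+ME, against 1.44 and 2.40 in SED and 3.38 and 3.01 in ME. It was well above background on all 4 placebo arrays and on no astaxanthin array, so its level with astaxanthin has only a bound and the gene was at least 1.53-fold lower (adjusted p = 0.0904). The odorant receptor genes Olfr139 and Olfr661 differed by 1.35 and 1.44, each well above background on 3 astaxanthin arrays and 1 placebo array. Prl3a1, a placental gene of the prolactin family, differed by -1.94 (SE 0.84) with overlapping groups. Rax, a homeobox gene of hypothalamus and retina, differed by -1.01 (SE 0.17), with 2.62 and 1.72 in AX and 1.96 and 1.30 in AX+ME against 7.44 and 3.28 in SED and 4.43 and 1.74 in ME.

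Cyp24a1, which breaks active vitamin D down, had 1.99 and 2.23 in AX and 2.37 and 2.75 in AX+ME, against 1.38 and 1.097 in SED and 1.40 and 1.17 in ME, a difference of 0.89 (SE 0.12, adjusted p = 0.0974). Cyp24a1 was well above background on only 3 astaxanthin and 2 placebo arrays. Vdr, the vitamin D receptor, had 1.65 and 1.08 in AX and 1.32 and 0.672 in AX+ME, against 11.8 and 2.45 in SED and 2.16 and 1.01 in ME. Vdr was lower within each of the 4 pairs, yet the groups overlapped, and it was well above background on 1 astaxanthin and 3 placebo arrays. Cyp27b1, which makes active vitamin D, was well above background on all 8 arrays and was picked after its values were seen. It had 5.68 and 8.58 in AX and 7.30 and 5.96 in AX+ME, against 4.52 and 3.49 in SED and 4.81 and 3.89 in ME. Its difference was 0.71 (SE 0.18, adjusted p = 0.131), with no overlap between the diets.

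The signs were tied to brightness. Of the 6695 dimmest genes 20% were higher and 4.59% lower in all 4 pairs, with a median difference of 0.09, while of the 6695 brightest 11.7% were higher and 24% lower, with a median of -0.03. After quantile normalization the dimmest genes held 11.3% higher and 11% lower, and after cyclic loess 11.6% and 10.5%. The brightest genes held 20.2% higher and 16.4% lower after quantile normalization, 16.4% and 15.8% after cyclic loess, and 2.02% and 47.1% with scaling on the median. Odorant and vomeronasal receptor genes, a group picked after its values were seen, lay mostly in the dim range (143 of 177 tested were among the dimmest 6695), and 60 were higher and 4 lower in all 4 pairs. Quantile normalization left 45 higher and 14 lower, and scaling on each array's median 46 and 16. Of 37 keratin and keratin-associated genes, also picked after values were seen, 17 were higher and 3 lower (45.9% and 8.11%). Quantile normalization left 12 and 3, and cyclic loess, normexp background correction and the percentile of all array columns each left 13 and 3. With scaling on the median 7 were higher and 5 lower. Scaling on the median turned the split of all same-sign genes round, to 1541 higher and 5613 lower. The counts of same-sign members below are therefore read against 18.5% higher and 13.3% lower over all genes and against the brightness class in which a list lies.

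**Figure D2:**
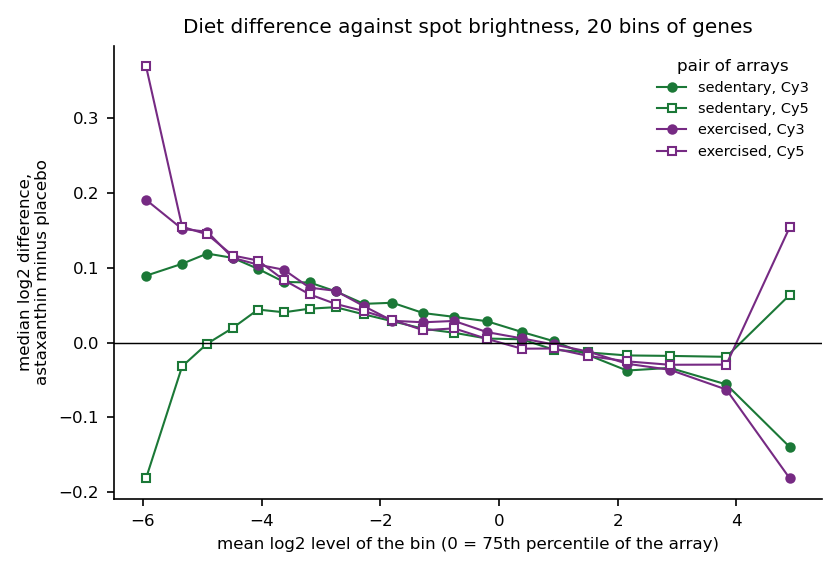
Median log2 difference of astaxanthin minus placebo (y axis) in 20 equal bins of genes ordered by mean log2 level (x axis, where 0 is the array's 75th percentile), 1 line for each pair of arrays. All 4 lines are above 0 at a level of -2.75 and below 0 at 2.16, and in the brightest bin the Cy3 pairs reach -0.14 and -0.18 while the Cy5 pairs reach 0.06 and 0.15.

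Several lists lie nearest to the handling and proposed targets of astaxanthin. Of these, retinoid genes, Nrf2 targets and antioxidant enzymes held same-sign shares near those of all genes. Of 10 carotenoid and lipoprotein uptake genes tested, 3 were higher and 0 lower in all 4 pairs (30% and 0%, median 0.02). Quantile normalization and cyclic loess each gave 2 and 0, the percentile of all array columns 1 and 2 and normexp 2 and 2. Scaling on the median gave 0 and 2, beside 7.67% higher and 27.9% lower over all genes. Scarb1, a receptor for high-density lipoprotein that also takes up carotenoids, had 24.2 and 23.6 in AX and 23.6 and 22.5 in AX+ME, against 21.0 and 18.9 in SED and 23.6 and 20.7 in ME. The lipoprotein receptor gene Lrp1 differed by 0.14 and Stard3, a lutein-binding sterol carrier, by 0.05. Of 15 retinoid genes, 3 were higher and 2 lower. The retinoid X receptor gene Rxra differed by 0.32 on its brighter probe and by -0.03 on a probe in the lower array columns, while Rxrg differed by -0.10. The retinol transport genes Rbp2 and Stra6 differed by 0.44 and 0.19.

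Of 26 Nrf2 targets, 4 were higher and 5 lower in all 4 pairs, with a median of -0.01. Quantile normalization gave 6 and 5, cyclic loess 4 and 6, the percentile of all array columns 2 and 6 and normexp 1 and 6. Scaling on the array median gave 0 and 12, beside 7.67% higher and 27.9% lower over all genes. Gclm, the regulatory subunit of the enzyme that limits glutathione synthesis, had 57.3 and 50.9 in AX and 53.2 and 53.4 in AX+ME, against 64.6 and 76.4 in SED and 64.3 and 55.2 in ME. The carbonyl reductase gene Cbr3 and the malic enzyme gene Me1 differed by -0.16 and -0.11 (Me1 by -0.081 and 0.23 on 2 other probes), and the cystine transporter gene Slc7a11 by 0.14. Antioxidant enzymes numbered 16, of which 2 were higher and 2 lower (median -0.06). Of the 16 differences 13 were below 0, while over all genes 54.3% were above 0. All 16 were well above background on every array, and 13 were among the brightest 6695 genes. Quantile normalization left 2 lower and cyclic loess 1, beside 16.4% and 15.8% of the brightest genes. With the percentile of all array columns and with normexp 8 were lower, beside 30.6% and 27.2%. Scaling on the median gave 10 lower, beside 47.1%. Sod2, the mitochondrial superoxide dismutase, had 2190 and 2196 in AX and 2210.1 and 2175 in AX+ME, against 2626 and 2673 in SED and 2328 and 2320.0 in ME, a difference of -0.18 (SE 0.05, adjusted p = 0.148). Thioredoxin (Txn1) differed by -0.15 and the plasma glutathione peroxidase gene Gpx3 by 0.21. Letters of the antioxidant response element, TGACNNNGC on either strand, were present in the 250 bases before a RefSeq start (GRCm38.p6) for 5 of 22 Nrf2 targets with a window (22.7%), 0 of 13 antioxidant enzymes and 13.6% of 8379 tested genes with a window.

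Among genes of oxidant sources, 5 of 14 were higher and 2 lower, with a median of 0.06 that was -0.01 with scaling on the median. Beside Duox1, Noxo1, the organiser of the NADPH oxidase Nox1, had 32.7 and 31.5 in AX and 31.6 and 31.5 in AX+ME, against 28.8 and 27.4 in SED and 29.6 and 28.0 in ME, with no overlap. Nox1 itself differed by -0.21, and the oxidase subunit gene Cyba by 0.10 on its brighter probe and by -0.19 on another in the lower columns. In the list of metallothioneins and acute phase genes, 5 of 8 were higher and 1 lower (62.5% and 12.5%, median 0.16), and the count of members higher was 3 to 5 under the 5 other scalings, which had 7.67% to 16.8% of all genes higher. Lcn2, the iron-scavenging acute phase protein lipocalin 2, had 54.9 and 56.0 in AX and 37.4 and 38.5 in AX+ME, against 32.3 and 35.5 in SED and 31.3 and 33.3 in ME. All astaxanthin arrays were above all placebo arrays and AX stood highest, with a difference of 0.47 (SE 0.11, adjusted p = 0.123). The heme scavenger hemopexin (Hpx), serum amyloid Saa1 and ceruloplasmin (Cp) differed by 0.56, 0.28 and 0.10.

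Among immediate early genes more members were lower than higher. Of 22 tested, 9 were lower and 2 higher in all 4 pairs (40.9% and 9.09%), with a median of -0.07 and 10 of the 22 among the brightest 6695 genes, of which 24% were lower. The median was below 0 in each pair, at -0.14, -0.10, -0.06 and -0.08 in the order sedentary Cy3, sedentary Cy5, exercised Cy3 and exercised Cy5. Quantile normalization left 9 lower, beside 14.3% of all genes and 16.4% of the brightest genes. Scaling on the median gave 11, beside 27.9% of all genes and 47.1% of the brightest. Fos, named after its values were seen, had 102 and 120.1 in AX and 104 and 111 in AX+ME, against 115 and 131 in SED and 110.3 and 127 in ME. The AP-1 subunit gene Jun had 1223 and 1155 in AX and 1064 and 1139 in AX+ME, against 1507 and 1436 in SED and 1221 and 1216 in ME, so that AX and ME overlapped. Egr1 differed by -0.18 (SE 0.05, adjusted p = 0.153). The growth arrest genes Gadd45b and Gadd45g differed by -0.20 (SE 0.03) and -0.21 (SE 0.05).

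The promoters of 4 of these genes that were lower in all 4 pairs are shown because neuronal activity is known to reach such genes through serum response factor at the CArG box and through CREB at the cyclic AMP response element. Each run is the 250 bases before a RefSeq start in build GRCm38.p6, 5′ to 3′ on the gene's strand. Capitals mark the core TGACG of the cyclic AMP response element, on either strand, and the CArG box of Egr2, which do not overlap each other. The Egr2 run lies on chromosome 10 at chr10:67537619-67537868 (plus strand, the window with the most matches of its 5), that of Fos at chr12:85473640-85473889 (plus), that of Nr4a1 at chr15:101266596-101266845 (plus) and that of Gadd45b at chr10:80929841-80930090 (plus).
Egr2: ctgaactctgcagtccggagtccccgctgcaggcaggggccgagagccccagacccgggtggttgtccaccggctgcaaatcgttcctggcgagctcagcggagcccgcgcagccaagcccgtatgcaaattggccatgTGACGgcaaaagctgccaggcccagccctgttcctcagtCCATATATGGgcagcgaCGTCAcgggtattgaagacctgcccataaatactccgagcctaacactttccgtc
Fos: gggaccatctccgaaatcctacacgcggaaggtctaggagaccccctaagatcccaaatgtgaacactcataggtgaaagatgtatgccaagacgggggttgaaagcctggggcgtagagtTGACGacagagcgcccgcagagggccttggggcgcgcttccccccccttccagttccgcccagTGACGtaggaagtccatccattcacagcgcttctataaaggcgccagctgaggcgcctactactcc
Nr4a1: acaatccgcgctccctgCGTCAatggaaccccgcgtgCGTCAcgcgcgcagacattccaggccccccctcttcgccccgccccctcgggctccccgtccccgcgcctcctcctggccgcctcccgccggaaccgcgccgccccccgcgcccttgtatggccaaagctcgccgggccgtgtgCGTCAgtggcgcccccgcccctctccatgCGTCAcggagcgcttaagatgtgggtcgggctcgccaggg
Gadd45b: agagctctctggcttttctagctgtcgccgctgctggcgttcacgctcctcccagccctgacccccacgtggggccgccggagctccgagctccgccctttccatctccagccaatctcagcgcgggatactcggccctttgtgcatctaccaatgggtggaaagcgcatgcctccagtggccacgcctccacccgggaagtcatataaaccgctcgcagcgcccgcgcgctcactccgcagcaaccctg
Egr2 held 2 cores and 1 CArG box, Fos 2 cores, Nr4a1 (a nuclear receptor that differed by -0.09) 4 cores, and Gadd45b none of these letters. Nr4a1 was picked outside the rules by which genes are named. Of windows not shown, those of Jun and Gadd45g held 0 cores, that of Dusp1 3 and that of Klf4 1. The core was present for 13 of the 18 immediate early genes with a window (72.2%) and for 5 of the 8 that were lower in all 4 pairs (62.5%). It was present for 27.5% of the 8379 tested genes with a window and in 17.8% of all 32851 windows, and the CArG box for 1.59% and in 1.47%.

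**Figure D3:**
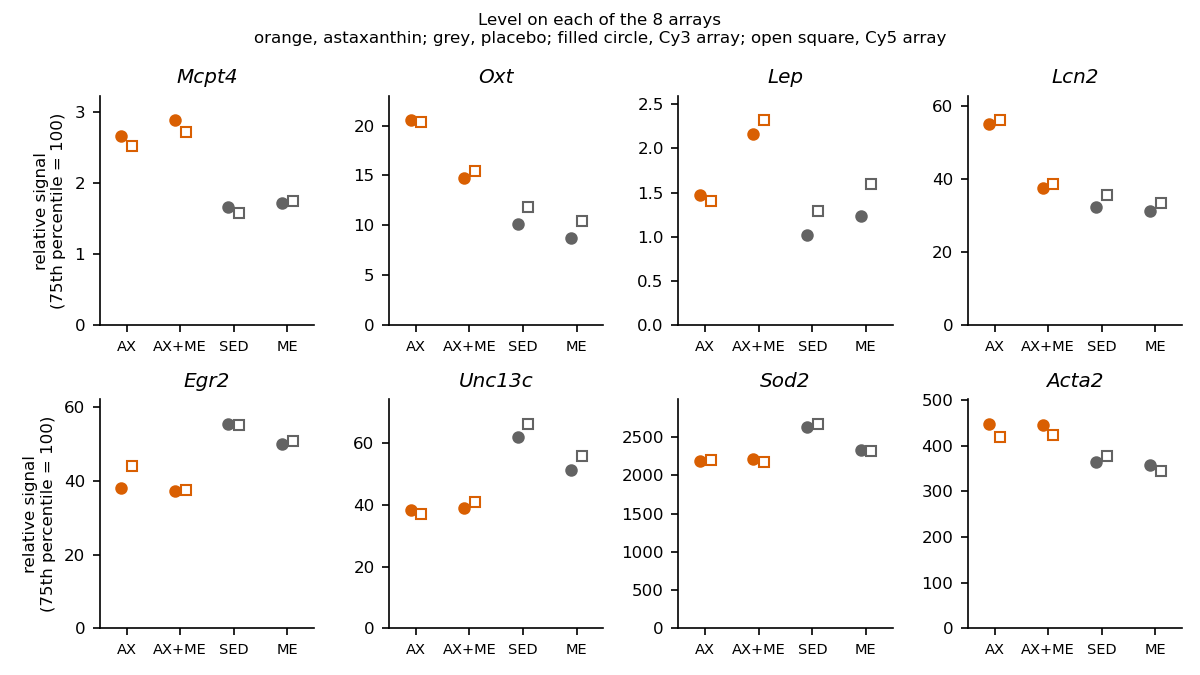
Relative signal (y axis, from 0, with the array's 75th percentile at 100) of 8 genes on each of the 8 arrays, with the astaxanthin groups AX and AX+ME in orange left of the placebo groups SED and ME in grey; filled circles are Cy3 and open squares Cy5 arrays. Astaxanthin lies above placebo for Mcpt4, Oxt, Lcn2 and Acta2 and below it for Egr2, Unc13c and Sod2, and for Lep the AX points at 1.47 and 1.40 overlap the ME point at 1.59.

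Leptin, the hormone named in the study's title, was near background. Lep had 1.47 and 1.40 in AX and 2.16 and 2.31 in AX+ME, against 1.02 and 1.29 in SED and 1.23 and 1.59 in ME. The AX+ME arrays were the highest, while AX overlapped ME. Lep was well above background on 3 astaxanthin arrays and on no placebo array, so the placebo level has only a bound and Lep was at least 1.22-fold higher (adjusted p = 0.122). The leptin receptor gene Lepr had 228 and 182 in AX and 231 and 184 in AX+ME, against 289 and 199.8 in SED and 271 and 217 in ME. It was lower in every pair by its brightest probe, with a difference of -0.24 (SE 0.05, adjusted p = 0.116), while 2 other probes gave -0.34 and 0.20. Of 18 genes of leptin signalling, 2 were higher and 4 lower, and the insulin receptor substrate gene Irs2 was among those lower at -0.18.

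Genes of new neurons gave few same-sign differences. Of 11 neural stem and progenitor genes, 0 were higher and 1 was lower, and of 7 immature neuron genes, 1 was higher and 0 lower. Eomes, a marker of intermediate progenitors, had 2.41 and 2.15 in AX and 2.22 and 2.80 in AX+ME, against 4.10 and 3.30 in SED and 3.36 and 3.00 in ME, without overlap. Among 19 proliferation genes, 0 were higher and 5 lower (26.3%, median -0.08). Under each of the 5 other scalings 0 were higher and 6 to 11 lower. Over all genes those scalings had 7.67% to 16.8% higher and 14.1% to 27.9% lower. The replication genes Pcna and Mcm4 differed by -0.17 and -0.13, and the mitotic kinase gene Cdk1, well above background on 2 astaxanthin and 3 placebo arrays, by -0.60 (SE 0.16). Among 18 growth factor genes, 3 were higher and 2 lower: Igfbp5, which binds insulin-like growth factors, differed by 0.16, and Bdnf by -0.14, with 235 and 272 in AX and 231 and 257 in AX+ME against 269 and 284 in SED and 258 and 279.7 in ME. Of 18 synaptic plasticity genes, 4 were higher and 3 lower, with the scaffold gene Shank3 at 0.27 and the NMDA receptor gene Grin2a at -0.20, but at 0.17 on another probe in the lower columns.

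Glial and vascular markers pointed to both sides. Among 13 microglia genes, 5 were lower and 1 was higher (38.5% and 7.69%, median -0.08), with 12 of the 13 among the brightest 6695 genes. Under quantile normalization 4 were lower, where 16.4% of all the brightest genes were, and with scaling on the median 7 were, where 47.1% were. Olfml3, an extracellular matrix gene used to mark microglia, had 322 and 367 in AX and 347 and 393 in AX+ME, against 451 and 449 in SED and 376 and 412 in ME. AX+ME was below ME within each dye, and the diets did not overlap after removal of each dye's mean. The difference was -0.24 (SE 0.08, adjusted p = 0.168 by limma), and Gpr34 and Csf1r differed by -0.17 and -0.15. A further probe of Csf1r, in the columns used, gave 0.16, and 1 of Olfml3 gave 0.03. The microglia list's summed relative signal was 9445.5 to 9853.1 on astaxanthin arrays and 9591.2 to 10824 on placebo arrays. Of 12 astrocyte genes, 2 were higher and 3 lower (median -0.03), and all 12 were among the brightest 6695 genes. Among those higher, Gfap, an intermediate filament gene, differed by 0.23 on its brighter probe and by -0.04 and -0.17 on 2 probes in the lower columns.

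Of 9 pericyte and smooth muscle genes, 4 were higher and 0 lower (44.4%, median 0.12), and 2 to 5 were higher under those scalings, with 1 lower when scaled on the median. Acta2, smooth muscle actin, had 448 and 419 in AX and 446 and 422 in AX+ME, against 364 and 376 in SED and 357 and 343 in ME, without overlap. It differed by 0.27 (SE 0.04, adjusted p = 0.0987), the contractile myosin gene Myh11 by 0.29, the mural cell receptor gene Notch3 by 0.14 and vitronectin (Vtn) by 0.12. The list's summed signal was 2720.3 to 2779.9 on astaxanthin arrays and 2474.6 to 2604.9 on placebo arrays. Of 11 endothelial genes, 4 were higher and 0 lower (36.4%, median 0.02), but the list's median was -0.01 with the percentile of all array columns and -0.06 with scaling on the median. Ly6a, Pecam1, Ocln and Cdh5 differed by 0.20, 0.19, 0.13 and 0.12, with Pecam1 at -0.01 when all array columns were used. The part of vessel content in the other differences was not tested.

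**Figure D4:**
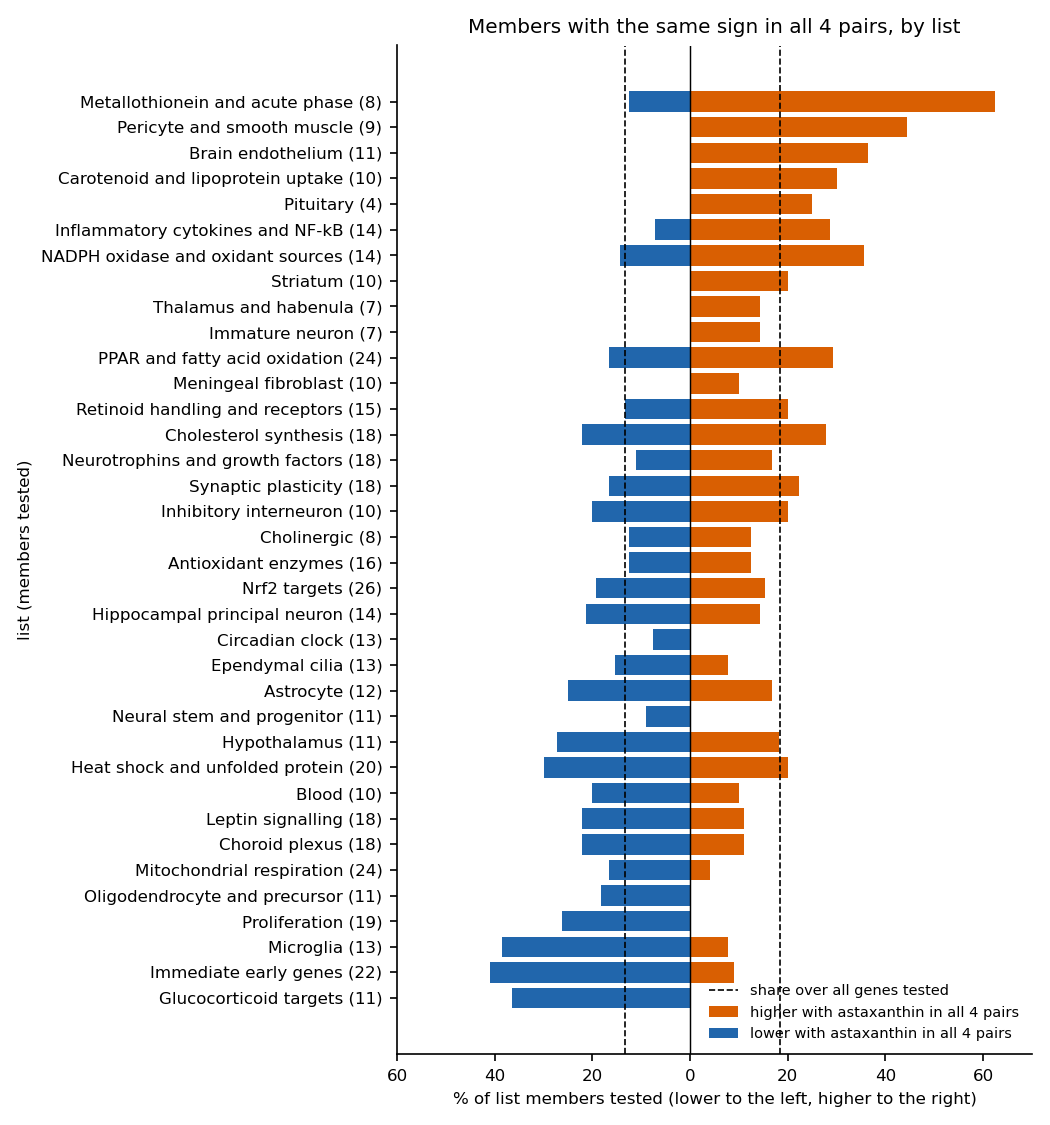
Share of each list's tested members that were higher (orange, to the right) or lower (blue, to the left) with astaxanthin in all 4 pairs, with the number tested in brackets and dashed lines at the shares over all genes, 18.5% and 13.3%. The acute phase list reaches 62.5% to the right, and immediate early genes and microglia reach 40.9% and 38.5% to the left.

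Scaling on the median, which gave a median difference of -0.06 over all genes against 0.01 here, left 2 higher and 8 lower in the first of the lipid lists below and 4 and 8 in the second. In the first, quantile normalization and cyclic loess each gave 7 and 4, the percentile of all array columns 7 and 6 and normexp 9 and 7. In the second, quantile normalization gave 5 and 3, cyclic loess 5 and 2, the percentile of all array columns 5 and 5 and normexp 4 and 8. Of 24 genes of PPAR signalling and fatty acid oxidation, 7 were higher and 4 lower, with the receptor gene Ppara at 0.15 on its brightest probe but -0.15 and -0.0046 on 2 others, the uncoupling protein gene Ucp2 at 0.33 and the fatty acid carrier gene Fabp3 at -0.11, but 0.012 on a probe in the lower columns. Cholesterol synthesis held 5 higher and 4 lower of 18, and 12 of the 18 differences were below 0 (median -0.03). The last enzyme of the pathway, Dhcr7, differed by 0.24, the regulator genes Srebf2 and Srebf1 by 0.21 and 0.14, and Pmvk, a kinase of the mevalonate pathway, by -0.08. Heat shock and unfolded protein genes held 4 higher and 6 lower of 20. The endoplasmic reticulum chaperone gene Hyou1 differed by 0.29, while the mitochondrial chaperonin genes Hspe1 and Hspd1 differed by -0.18 and -0.18 and the stress regulator gene Xbp1 by -0.18. Glucocorticoid targets held 0 higher and 4 lower of 11 (36.4%), with 8 of the 11 among the brightest 6695 genes. Of those members 3 were lower under quantile normalization, 8 with the percentile of all columns and 7 with scaling on the median, beside 16.4%, 30.6% and 47.1% of the brightest genes. Choroid plexus genes held 2 higher and 4 lower of 18, and the list's summed signal was 6091.4 to 7424.9 on astaxanthin arrays and 5939.3 to 7860.5 on placebo arrays.

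Whether the diet difference was the same in both activity levels was tested with an interaction term. It passed for 0 of 20085 genes (0%, smallest adjusted p = 0.185 by limma, 2118 genes at an unadjusted p under 0.05), and AX against SED and AX+ME against ME called 0 genes each. In 1024 genes (5.1%) the difference was upward in both sedentary pairs and downward in both exercised pairs, and in 1255 genes (6.25%) it was downward in the sedentary and upward in the exercised pairs. Trh, the thyrotropin-releasing hormone gene, had 8.46 and 6.84 in AX against 30.4 and 25.0 in SED, but 11.7 and 11.5 in AX+ME against 9.70 and 8.82 in ME. Its level in SED thus stood apart from the other 6 arrays. The dopamine receptor gene Drd1 had 16.6 and 16.2 in AX against 24.8 and 24.6 in SED, and 19.5 and 19.4 in AX+ME against 17.8 and 16.3 in ME. Pomc, the precursor of melanocortins, had 84.96 and 79.5 in AX against 124 and 114 in SED, and 76.4 and 74.6 in AX+ME against 56.5 and 56.5 in ME. Collagen III (Col3a1) had 15.6 and 16.3 in AX against 21.1 and 24.5 in SED, and 18.8 and 19.3 in AX+ME against 13.1 and 13.2 in ME.

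Meningeal fibroblast markers as a list had a median diet difference of -0.11 in sedentary and 0.54 in exercised mice (10 tested), and 1 of the 10, the transporter gene Slc6a13, was higher in all 4 pairs. The skin envelope gene Lce1i and Socs3, the feedback inhibitor of cytokine and leptin signalling, followed the pattern of Trh at lower amplitude, with interaction terms of 1.54 and 0.41 on the log2 scale. The pituitary hormone gene Prl was higher in all 4 pairs, at 8.15 and 9.43 in AX against 7.396 and 7.92 in SED and at 7.94 and 7.73 in AX+ME against 0.910 and 1.48 in ME, so that the ME arrays alone stood apart. The striatal genes Drd2 and Adora2a differed by 0.48 and 0.27, and the list they belong to held 2 higher and 0 lower of 10. Of the list's 10 differences 4 were above 0 and 6 below it, with a median of -0.03 and Drd1 the lowest at -0.20.

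**Figure D5:**
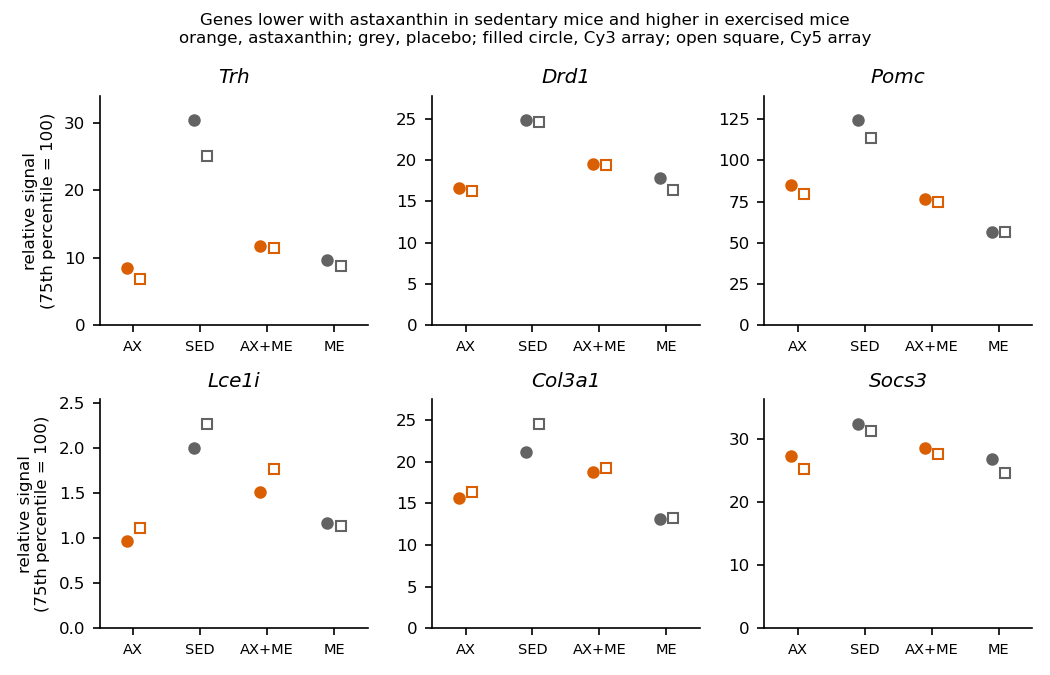
Relative signal (y axis, from 0) of 6 genes on each array, with each astaxanthin group in orange left of the placebo group of the same activity in grey; filled circles are Cy3 and open squares Cy5 arrays. AX lies below SED and AX+ME above ME for each of these genes, and in the interaction test none of them passed (adjusted p = 0.185 for 5 of them and 0.323 for Socs3).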

How the data were processed

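Total RNA of mouse hippocampus was measured in 8 samples on 1 slide of 2-colour arrays, each sample in 1 dye on an array of its own. The deposited scanner files hold spot intensity, background-subtracted and spatially detrended within the array per the file headers, and per the submitters' processing notes came from version 11.0.1.1 of Agilent Feature Extraction. The intensity of the deposited series-wide table equals it to within 0.5, on a linear scale with no centring. The own-dye signal of spots in columns 70 and higher was divided by the array's 75th percentile, floored at 0.002 and put on a log2 scale. Control and non-uniform spots were left out. A probe entered where 1 group or more had it well above background on both its arrays, and the brightest probe stood for its gene. Symbols came from RefSeq accessions: of 32411 probes in those columns 15530 had a symbol and 16881 none. The scanner files used here hold no mean signal column, so the normexp alternative started from the median signal.

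Limma 3.58.1 (R 4.3.3) was fitted on all 8 arrays with terms for diet, activity and dye (4 residual and 1.67 prior degrees of freedom), with Benjamini-Hochberg adjustment over 20085 genes and a threshold of 0.05. P-values are two-sided. The fit was tested on simulated data. The dye is the replicate number: Cy3 minus Cy5 deviations of the groups correlated with r of 0.115 to 0.194 across genes, so dye stays in the model. The named genes are those past the threshold, the 12 each way with the largest smallest pair difference among genes detected on all arrays, 4 each way among the others, up to 4 same-sign members of each of 36 lists, and leptin genes with the genes of an earlier account. Members, lists and rules were chosen with earlier results of these data known. A gene below background on all 4 arrays of a diet has only a bound there: the other diet's mean against the mean of, per array, the higher of its own signal and the dimmest detected probe's, given as "at least N-fold". Of the genes that these rules name, 2 are not reported here. The number of arrays limits the precision. Alternatives changed the block, columns, scaling, background, filter, probe rule, moderation and arrays used.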

Additional observations from a re-analysis of the deposited data

Results flagged for a closer look

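Within a diet's 4 arrays, after removal of each dye's mean, 1 array lay far from the other 3 in 10 of 204 groups of 4 (the gap to the nearest array over the range, above Dixon's 95% critical value). Chance flags about 1 in 20 groups. Each dye's mean was taken over both diets, so a flag can also reflect the arrays of the other diet. In astaxanthin samples the second AX array was high for Gpr34 (0.83) and low for Shank3 (0.852) and Gfap (0.845). The first AX+ME array was low for Ino80b (0.913) and Noxo1 (0.951) and high for Rxra (0.844), and the second AX+ME array was high for Stard3 (0.967) and low for Prl (0.88). Before the dye means were removed, its Prl signal of 7.73 lay near the 7.94, 8.15 and 9.43 of the other astaxanthin arrays. In placebo samples the first SED array was high for Ino80b (0.934) and the first ME array for Hpx (0.848).

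In 6 of 102 named genes both sedentary pairs ran downward and both exercised pairs upward with astaxanthin. Over all 20085 genes tested, 1255 (6.25%) had this pattern. All 6 were named because an earlier account of these data had named them for AX against SED. They are therefore no independent sign of such a pattern. The interaction, exercised minus sedentary on the log2 scale, was 2.18 for Trh, 1.54 for Lce1i, 0.78 for Drd1, 0.95 for Pomc, 1.04 for Col3a1 and 0.41 for Socs3. Its adjusted p by limma was 0.185 for each of these but Socs3, where it was 0.323, so the difference between activity levels did not pass the test.

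In the dye that held no sample, 256 to 503 of 34334 spots per array were well above background, with the most on the first AX+ME array (503) and 340 to 418 on placebo arrays.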

How the results depend on the processing

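Of 2616 recomputed differences of named genes, 2539 kept their direction and their side of the threshold. Much of this was fixed in advance. Most of these genes were named for the same sign in all 4 pairs, so either activity alone could not turn their direction. A change of block or of moderation leaves the differences themselves unchanged, and all but Mcpt4 started above the threshold. The single called gene, Mcpt4, was higher under all 25 alternatives that measured it (0.29 to 0.70). All its pairs ran upward, so with either activity alone or with another block its sign could not turn. The count of 1 became 0 with the activity-by-dye pair as a replicate block (smallest adjusted p = 0.188) and with 4 groups plus dye, all array columns, the percentile of all columns, quantile, median or normexp scaling, no filter, either activity alone, cyclic loess (chosen after seeing the data) and each array left out (0 to 0). It became 37 with genes detected on all 8 arrays and 244 (154 higher, 90 lower) with a trended, robust spread, neither set including Mcpt4, and stayed 1 without the replicate block. Same-sign genes numbered 12653 in exercised arrays alone (7275 higher, 5378 lower) and 13121 in sedentary arrays alone (7150 and 5971), where only 2 pairs are counted and no overlap means the same. With all columns 4533 were higher and 4593 lower, with the percentile of all columns 2881 and 3410, and with scaling on the median 1541 and 5613. Leaving out 1 array gave 7714 to 9033 same-sign genes and 3489 to 5050 without overlap, the most without the second AX array. Lists with a median above 0 numbered 16, against 9 with all columns and 5 with scaling on the median. The interaction called 47 genes with all columns. The causes were not tested.

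Directions turned as follows. With all columns the differences were 0.50 for Cep41, -0.029 for Rxra, -0.016 for Col3a1, -0.19 for Cyba, -0.0067 for Pecam1 and -0.042 for Gfap. Csf1r was at 0.18 in columns 85 and higher and at 0.021 as a mean of probes, and Stard3 at -0.023 and Col3a1 at -0.065 with scaling on the median. Normexp gave 0.029 for Socs3 and 0.013 for Pmvk. Col3a1 was at -0.016 with the percentile of all columns, -0.036 with quantile, -0.038 with cyclic loess and -0.51 in sedentary arrays alone. Exercised arrays alone gave 0.33 for Trh, 0.50 for Lce1i, 0.19 for Drd1, 0.42 for Pomc and 0.13 for Socs3. Leaving out 1 array gave -0.19 to 0.078 for Pomc and -0.14 to 0.17 for Col3a1. Genes near background, Mcpt4 and Lep among them, have the least signal over background.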
